A study of Mus musculus with 10 samples.

Results

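The 8 genes described here, Lrrc15, Cdh11, Postn, Tnc, Cthrc1, Fap, Adam12 and Spp1, are known from activated fibroblasts, the matrix-building state of connective tissue cells in growing, injured or fibrotic tissue. They are 8 of the 54532 genes in the deposited table, and they were chosen by their difference between IncPBF and sham lungs in these same data, so that difference is a description of them, and no p-value is given for it. The study asked how increased pulmonary blood flow (IncPBF) acts on the lung during alveolar growth. Wild-type C57/BL6 pups of either sex were operated on at P7 (postnatal day 7). In the IncPBF group a needle was passed from the abdominal aorta into the inferior vena cava to leave a fistula, and in the sham group the same operation was done without the puncture. RNA of whole lungs was sequenced at P14, with 5 lungs per group, so both groups shared laparotomy, anaesthesia and age, and the groups carried no transgene.

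A resting fibroblast that becomes activated, classically under transforming growth factor beta and mechanical tension, makes contractile fibres, fibrillar collagens and a set of matricellular proteins that tell cells about the matrix without bearing load. Periostin (Postn) and tenascin C (Tnc) are such proteins, Cthrc1 is a secreted protein of collagen-producing cells, and Lrrc15 is a leucine-rich repeat protein of the cell surface known from fibroblasts of fibrotic tissue and tumours. Cadherin 11 (Cdh11) joins mesenchymal cells to each other, and Fap and Adam12 are proteases on the cell membrane. Osteopontin (Spp1) is a secreted phosphoprotein that macrophages make as well as mesenchymal cells. In the postnatal lung several of these genes are part of normal septation, where alveolar myofibroblasts are active for a short period, so these transcripts are also known from healthy growing lungs.

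Levels are given as FPKM, fragments scaled to the length of the gene and the size of the library, which can be compared between genes because length is taken into account. Each lung had between 16103423 and 20318525 fragments on genes, and 1 fragment on a gene of 1 kilobase was worth 0.0482 to 0.0580 FPKM. Differences are on the scale of log2(FPKM + 0.1), IncPBF minus sham, with the standard error (SE) of a limma fit over the 15388 genes with a mean of at least 0.5 FPKM. Of the 8 genes 7 were above this minimum, and Fap was below it. Lrrc15 passed it only through the IncPBF lungs, since its sham mean was 0.484 FPKM. The labels did not give the sex of each pup. Xist, the RNA of the inactive X chromosome of females, was at 52.4 to 66.5 FPKM in IncPBF lungs 2 to 5, at 0.0144 FPKM in IncPBF lung 1 and at 0.00640 to 0.0770 FPKM in the sham lungs. Ddx3y, from the Y chromosome, was at 18.6 FPKM in IncPBF lung 1, at 21.8 to 24.6 FPKM in the sham lungs and at 0 to 0.00926 FPKM in the other IncPBF lungs. The groups therefore differed in sex-linked RNA in 4 of the 5 IncPBF lungs, and surgery and sex cannot be told apart in those lungs. IncPBF lung 1, which resembled the sham lungs in these genes, is given beside the other results for this reason.

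Lrrc15 is encoded on chromosome 16 of GRCm38 (chr16:30269302-30283256, minus strand), by 1 annotated transcript of 2 exons. Its promoter is shown because Lrrc15 had the largest difference of the set. RefSeq on GRCm38.p6 gives the 250 bases before its start, chr16:30283255-30283504 on the minus strand, as follows, 5′ to 3′, with capitals at the AP-1 motif TGANTCA.

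Lrrc15: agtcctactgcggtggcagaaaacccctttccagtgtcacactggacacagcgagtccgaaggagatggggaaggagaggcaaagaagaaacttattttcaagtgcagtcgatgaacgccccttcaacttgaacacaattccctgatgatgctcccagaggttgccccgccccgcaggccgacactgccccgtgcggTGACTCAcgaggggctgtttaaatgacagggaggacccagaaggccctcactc

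The AP-1 motif began 53 bases before the start, and 6.75% of all 32851 RefSeq promoter windows of 250 bases held that motif on either strand. An E-box, CANNTG, began 151 bases before the start, a motif that 66.2% of the windows held. The motifs TATAAA, the TEAD motif GGAATG, the RUNX motif TGTGGT, the SMAD motif CAGACA and the CArG box were looked for on both strands, and these letters did not occur in this window.

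Lrrc15 was nearly silent in sham lungs and clearly present in every IncPBF lung. IncPBF lungs 1 to 5 had 2.99, 5.08, 5.92, 6.50 and 5.40 FPKM, and sham lungs 1 to 5 had 0.210, 0.290, 0.900, 0.857 and 0.162 FPKM. The groups did not overlap: the lowest IncPBF lung, lung 1, was 3.32 times the highest sham lung. Among the sham lungs, lungs 3 and 4 stood above the other 3. The group means were 5.18 ± 1.34 FPKM and 0.484 ± 0.364 FPKM (SD, n = 5), a ratio of 10.7, and the log2 difference was 3.36 (SE 0.39). These levels rest on 307 to 596 fragments per IncPBF lung and 15 to 90 per sham lung, so the sham value and with it the size of the ratio are the less certain side. RNA of a whole lung does not show whether more cells carried a transcript or each cell carried more of it, and for all genes here fewer cells of a type and less RNA per cell cannot be told apart.

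**Figure D1:**
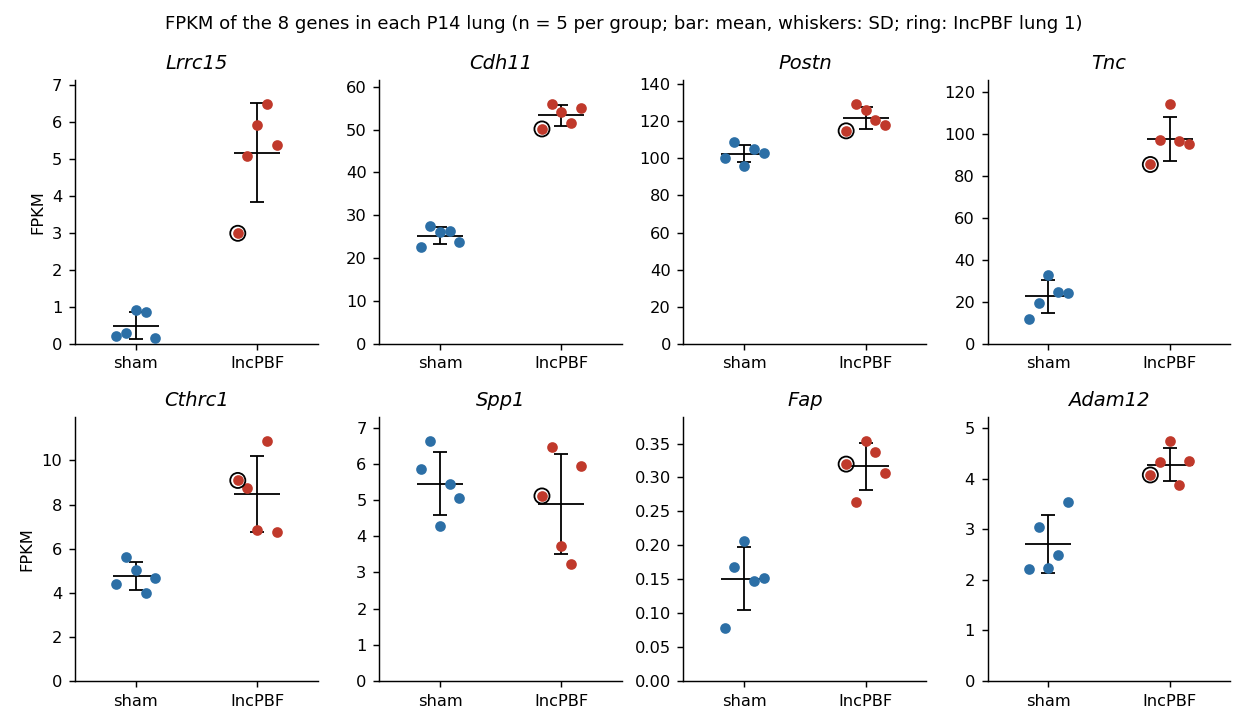
FPKM (vertical axes, linear from 0, a scale of its own for each gene) of the 8 genes in 5 sham and 5 IncPBF lungs, 1 point per lung, with the mean and SD of each group and a ring around IncPBF lung 1. The groups are apart for 7 genes and overlap for Spp1, and IncPBF lung 1 is the lowest IncPBF lung for Lrrc15, Cdh11, Postn and Tnc.

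Cdh11, the mesenchymal cadherin, lies on chromosome 8 (chr8:102632095-102785642, minus strand) with 13 exons in its coding transcript. It was at 50.1, 56.0, 54.1, 51.5 and 55.0 FPKM in IncPBF lungs 1 to 5 and at 22.5, 27.4, 26.1, 26.2 and 23.7 FPKM in sham lungs 1 to 5. All IncPBF lungs were above all sham lungs, by a ratio of 1.83 at the nearest pair. The means were 53.4 ± 2.45 and 25.2 ± 2.02 FPKM (SD, n = 5), and the log2 difference was 1.08 (SE 0.06). Within the groups Cdh11 varied little, with a coefficient of variation of 4.59% in IncPBF and 8.004% in sham lungs, against 25.8% and 75.2% for Lrrc15. Cdh11 also had 7918 to 10160 fragments per IncPBF lung, so counting error adds little to its spread. Short annotated genes on the same strand lie inside Cdh11, and reads from them cannot be separated from those of Cdh11 here.

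The matricellular genes Postn and Tnc were the most abundant members of the set in IncPBF lungs and moved by unequal amounts. Postn lies on chromosome 3 (chr3:54361109-54391037, plus strand) and Tnc on chromosome 4 (chr4:63959785-64047015, minus strand). Their promoters are shown because both genes are matricellular and differ in the size of their change. The 250 bases before the RefSeq start nearest to the gene start in the file were chr3:54360857-54361106 on the plus strand for Postn and chr4:64047016-64047265 on the minus strand for Tnc, and capitals mark TATAAA.

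Postn: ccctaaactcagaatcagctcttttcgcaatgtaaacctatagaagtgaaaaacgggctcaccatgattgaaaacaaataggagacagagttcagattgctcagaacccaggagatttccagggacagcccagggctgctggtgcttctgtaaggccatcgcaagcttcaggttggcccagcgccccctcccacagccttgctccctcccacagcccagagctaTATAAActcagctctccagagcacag
Tnc: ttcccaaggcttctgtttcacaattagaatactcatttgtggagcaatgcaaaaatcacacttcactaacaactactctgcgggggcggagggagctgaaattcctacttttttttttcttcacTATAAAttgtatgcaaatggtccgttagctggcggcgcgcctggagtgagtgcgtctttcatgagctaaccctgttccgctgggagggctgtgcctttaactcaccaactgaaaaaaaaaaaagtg

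TATAAA began 26 bases before the start in Postn and 126 bases before it in Tnc, and 12.4% of the windows held this motif on either strand. Tnc also held 3 E-boxes, beginning 217, 113 and 21 bases before the start, and none overlapped TATAAA. The AP-1, TEAD, RUNX, SMAD and CArG box letters did not occur in either window.

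Postn was high in every lung. It was at 114.9, 129.6, 126.0, 120.8 and 118.1 FPKM in IncPBF lungs 1 to 5 and at 100.3, 108.8, 96.2, 105.0 and 102.7 FPKM in sham lungs 1 to 5. The groups did not overlap, but the lowest IncPBF lung was only 1.06 times the highest sham lung. The means were 121.9 ± 5.91 and 102.6 ± 4.76 FPKM (SD, n = 5), a ratio of 1.19 and a log2 difference of 0.25 (SE 0.05). This was a narrow difference of a high level, in contrast to Lrrc15.

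Tnc was at 85.4, 97.1, 114.4, 96.4 and 95.0 FPKM in IncPBF lungs 1 to 5 and at 11.7, 19.2, 32.6, 24.6 and 24.1 FPKM in sham lungs 1 to 5. Every IncPBF lung was above every sham lung, by a ratio of 2.62 between lung 1 of IncPBF and lung 3 of sham. The means were 97.7 ± 10.5 and 22.5 ± 7.70 FPKM (SD, n = 5), the ratio 4.35 and the log2 difference 2.19 (SE 0.22). In FPKM the step of Tnc, 75.2, was the widest of the 8 genes. The antisense gene 8030451A03Rik overlaps Tnc, and since the use of strand in the counting was not given in the sources used here, reads of the pair cannot be told apart.

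Cthrc1, the secreted protein with collagen-like repeats, lies at chr15:39076932-39087121 on the plus strand. IncPBF lungs 1 to 5 had 9.09, 8.74, 6.86, 10.9 and 6.74 FPKM and sham lungs 1 to 5 had 4.41, 5.63, 5.04, 4.01 and 4.69 FPKM. The groups did not overlap, and IncPBF lungs 3 and 5 came nearest to the sham lungs. The means were 8.46 ± 1.72 and 4.75 ± 0.619 FPKM (SD, n = 5), with a log2 difference of 0.81 (SE 0.14). Here IncPBF lung 1 was the second highest of its group.

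Spp1 was the exception among the secreted members. The gene lies at chr5:104435118-104441050 on the plus strand, and the 250 bases before its nearest RefSeq start, chr5:104434861-104435110, are shown because its levels, unlike those of Lrrc15, Postn and Tnc, overlapped between the groups. Capitals mark, in order, TATAAA, the RUNX motif and the SMAD motif.

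Spp1: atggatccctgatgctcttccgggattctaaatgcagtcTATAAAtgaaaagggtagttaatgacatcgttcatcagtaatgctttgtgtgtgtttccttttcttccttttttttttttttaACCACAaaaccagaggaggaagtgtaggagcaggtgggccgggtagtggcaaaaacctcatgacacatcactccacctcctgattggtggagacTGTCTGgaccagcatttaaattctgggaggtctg

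The RUNX motif (TGTGGT on the other strand) began 128 bases before the start and the SMAD motif (CAGACA on the other strand) 34 bases before it. All windows held these motifs in 14.05% and 17.1% of cases, and an E-box began 98 bases before the start without overlapping either. TATAAA began 211 bases before the start. TEAD, AP-1 and CArG box letters did not occur in the window, and TEAD and the CArG box, held by 12.6% and 1.47% of all windows, occurred in 0 of the 4 promoters read.

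Spp1 was at 5.12, 6.48, 3.74, 3.24 and 5.93 FPKM in IncPBF lungs 1 to 5 and at 5.85, 6.63, 4.29, 5.46 and 5.05 FPKM in sham lungs 1 to 5. The groups overlapped: 0 IncPBF lungs were above all sham lungs and 2, lungs 3 and 4, were below all of them. The means were 4.90 ± 1.39 and 5.46 ± 0.876 FPKM (SD, n = 5), and the log2 difference was -0.18 (SE 0.19). Spp1 had 92 to 203 fragments per IncPBF lung and 133 to 206 per sham lung. The annotated gene Gm42793 overlaps Spp1 on the same strand, and its reads cannot be separated from those of Spp1 here.

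The membrane proteases differed in level more than in difference. Fap, a serine protease of the dipeptidyl peptidase family at chr2:62500943-62574075 on the minus strand, was at 0.320, 0.264, 0.354, 0.338 and 0.306 FPKM in IncPBF lungs 1 to 5. Sham lungs 1 to 5 had 0.0787, 0.169, 0.206, 0.148 and 0.152 FPKM. The groups did not overlap, but the values rest on 28 to 37 fragments per IncPBF lung and 8 to 22 per sham lung. The means were 0.316 ± 0.0344 and 0.151 ± 0.0464 FPKM (SD, n = 5), a ratio of 2.10, which is 1.07 on the log2 scale. The difference of the means of log2(FPKM + 0.1) was 0.75, less than this, because the 0.1 added is near the level of Fap.

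Adam12, a metalloprotease with a disintegrin domain at chr7:133883199-134232146 on the minus strand, was at 4.08, 4.32, 4.75, 3.88 and 4.35 FPKM in IncPBF lungs 1 to 5. Sham lungs 1 to 5 had 2.22, 3.04, 2.24, 2.49 and 3.53 FPKM. Every IncPBF lung was above every sham lung, with a ratio of only 1.098 between IncPBF lung 4 and sham lung 5. The means were 4.28 ± 0.328 and 2.71 ± 0.568 FPKM (SD, n = 5), a ratio of 1.58, and the log2 difference was 0.66 (SE 0.12). As with Cdh11, short genes on the same strand lie within Adam12 and their reads cannot be separated.

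Over the set, 7 of 8 genes had all IncPBF lungs above all sham lungs, where 12.0% of the 15388 genes tested did. By the limma fit with a Benjamini-Hochberg adjusted threshold of 0.05, 6 of the 7 members tested were called higher and 0 lower, beside 16.1% of all genes tested called higher and 16.2% called lower. With equal totals per lung the even split of all genes was lost, with 3559 called higher and 1782 lower in place of 2480 and 2490. Since the contrast chose the 8 genes, their counts, here and under other settings, describe the choice. The median log2 difference of the 8 genes was 0.78, and that of all genes tested was 0.01, with a median absolute value of 0.20.

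IncPBF lung 1 bears on the sex-linked RNA. Its value was above all 5 sham lungs in 7 of the 8 genes, as it was in 26.4% of the genes tested, and it was the lowest IncPBF lung in 4 of the 8. For Lrrc15 it was 2.64 above the sham mean on the log2 scale, where IncPBF lungs 2 to 5 were 3.55 above it. For Postn the figures were 0.16 and 0.27, for Tnc 2.00 and 2.23, and for Cdh11 0.99 and 1.105. For Cthrc1 the order turned, with 0.93 for lung 1 and 0.77 for lungs 2 to 5. With log2 Xist as a covariate, which leaves the comparison resting mainly on that lung, the log2 difference of Lrrc15 was 2.55 (SE 0.62), that of Tnc 1.96 (SE 0.38) and that of Cdh11 0.99 (SE 0.11), and 3 members were called in place of 6.

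**Figure D2:**
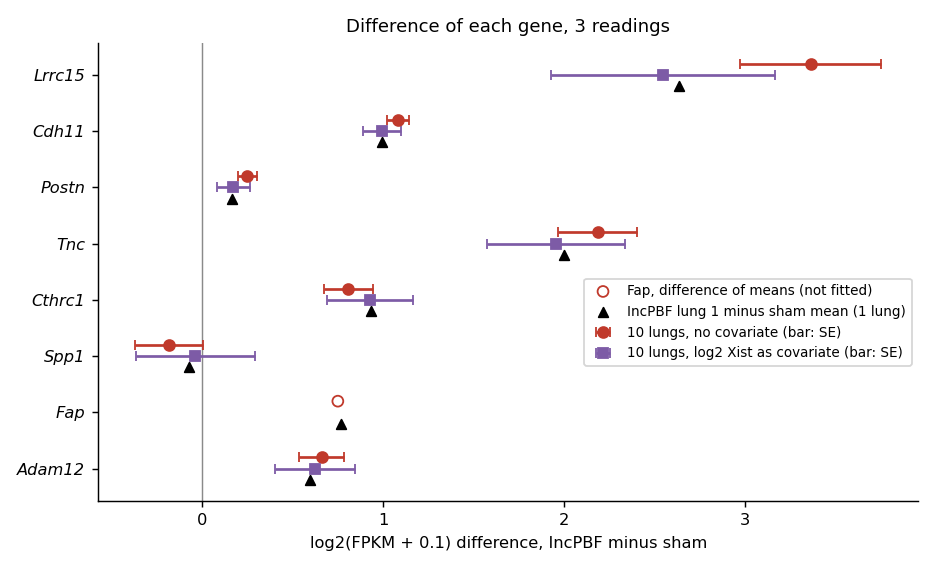
Difference between IncPBF and sham lungs in log2(FPKM + 0.1) (horizontal axis) for each of the 8 genes (vertical axis): circles, all 10 lungs with SE; squares, with log2 Xist as covariate and SE; triangles, IncPBF lung 1 minus the sham mean. Fap, which was not fitted, has an open circle without SE and no square. Lrrc15 ranges from 2.55 to 3.36 over the 3 readings, Cdh11 stays between 0.99 and 1.08, and Spp1 stays near 0 with -0.18, -0.04 and -0.08.

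The order of the levels also differed between the groups. In sham lungs Postn was highest, followed by Cdh11 and Tnc, whose lungs overlapped, then Spp1 and Cthrc1, which also overlapped, then Adam12, and last Lrrc15 and Fap, which overlapped. In IncPBF lungs Postn was followed by Tnc, Cdh11 and Cthrc1, each apart from the next in all 5 lungs, then by Lrrc15, Spp1 and Adam12, whose ranges overlapped, and by Fap. Tnc therefore passed Cdh11, and Lrrc15 stood beside Spp1 and Adam12 where in sham lungs it stood below them. Fap was last in both groups.

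**Figure D3:**
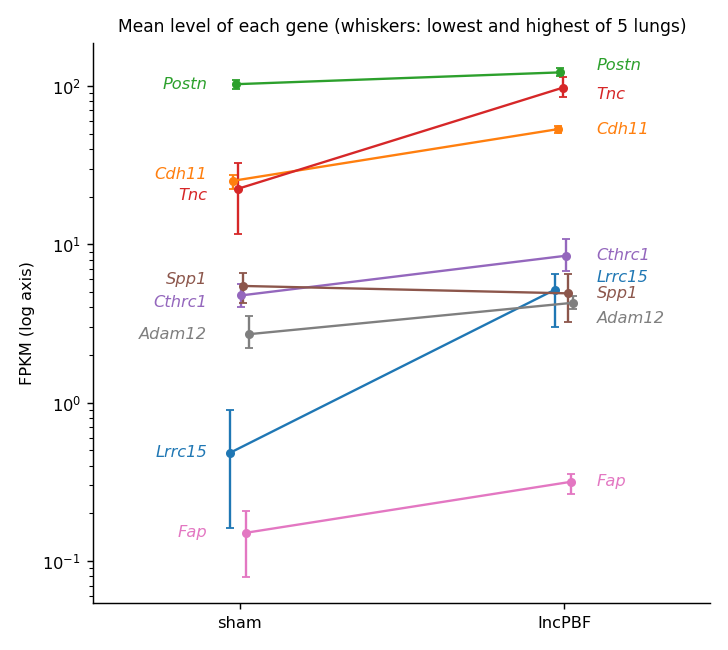
Mean FPKM (logarithmic vertical axis) of the 8 genes in sham and IncPBF lungs, with whiskers from the lowest to the highest of 5 lungs and a line joining the groups. The line of Lrrc15 climbs most steeply, from 0.484 to 5.18 FPKM, the line of Tnc crosses that of Cdh11, and the line of Spp1 falls slightly, from 5.46 to 4.90 FPKM.

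Likeness between the genes was measured as the root mean square difference of their log2 profiles, each set to mean 0 and SD 1 over the 10 lungs, and is dominated by the step between the groups. The nearest pair was Cdh11 and Tnc at 0.251, followed by Fap and Tnc at 0.252 and Lrrc15 and Tnc at 0.273. Spp1 was 1.42 to 1.63 from each of the others, where the median distance of all genes tested from the mean profile of the 8 was 1.31. The 5 genes nearest to that mean profile were Gm21451 (0.123), Hnrnpab (0.136), Mex3a (0.137), Wisp1 (0.138) and Tgfb2 (0.145). Wisp1, a matricellular gene of the CCN family, was also nearest to Cdh11 (0.0840), with 20.7 ± 1.496 FPKM in IncPBF and 6.53 ± 0.809 FPKM in sham lungs (SD, n = 5). G3bp1 (0.103) and Kcna6 (0.103) came next to Cdh11, and Birc5 (0.0944), Mthfd2 (0.141) and Ran (0.150) were nearest to Lrrc15.

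Other genes of fibroblast activation were taken from lists, and their calls are from the limma fit, adjusted over all 15388 genes. Of all these genes 16.1% were called higher and 16.2% lower. The lists were chosen with earlier results of these data known, so their counts stand beside these shares as a description. No list was tested against these shares. Of 24 matrix and contractile companions, 23 were tested, 13 rose and 3 fell, with a median log2 difference of 0.35. Those with the largest rises were Grem1, an antagonist of bone morphogenetic proteins (3.17, SE 0.42), Tgfbi, a matrix protein of the periostin family (1.97, SE 0.22), Acta2, smooth muscle actin (1.57, SE 0.24), and Col12a1, a fibril-associated collagen (1.12, SE 0.14). By limma their adjusted p-values were 0.000318, 0.000110, 0.000783 and 0.000159. Grem1 was at 2.62 to 5.06 FPKM in IncPBF and 0.0806 to 1.17 FPKM in sham lungs, a low level in sham lungs like that of Lrrc15. Its sham mean, 0.441 FPKM on 6 to 91 fragments per lung, was below the minimum of 0.5 FPKM. Fibrillar collagen genes rose less, by 0.35 for Col1a1, which overlapped between the groups, and 0.32 for Col1a2, and Col3a1 was at 350.4 FPKM in IncPBF and 376.1 FPKM in sham lungs and was not called. Sfrp1, Lox and Fn1 fell, with log2 differences of -0.69, -0.40 and -0.35. IncPBF lung 1 was above all sham lungs in 12 of the 13 genes that rose, all but Col1a1. That lung was used in the calls, so they partly set this count. With log2 Xist as a covariate only 1 of the 13, Tgfbi, was still called.

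Among regulators of the state, 9 of 17 tested rose and 2 fell, with a median log2 difference of 0.43. Of the 17 tested, 9 had every IncPBF lung above every sham lung, as 12.0% of all genes tested did. They are the same 9 genes that were called, and the calls used these lungs, so they partly set this count. Twist1, a transcription factor of mesenchymal cells, had 1.78 ± 0.750 FPKM in IncPBF and 0.362 ± 0.218 FPKM in sham lungs (SD, n = 5; log2 difference 2.09, SE 0.40, limma adjusted p = 0.00265). The sham level of Twist1 rests on 3 to 17 fragments per lung, and its sham mean was below the minimum of 0.5 FPKM. Twist2, also called higher, had a sham mean of 0.411 FPKM, below that minimum too. Wnt5a rose by 1.27 (SE 0.14), and the ligands Tgfb2 and Tgfb3 rose by 1.17 (SE 0.07) and 1.11 (SE 0.12). By limma the adjusted p-values of these genes were 9.11e-05, 3.05e-06 and 8.99e-05. Tgfb1 was at 18.0 FPKM in IncPBF and 20.54 FPKM in sham lungs and was not called, and the receptor genes Tgfbr1 and Tgfbr2 fell, with log2 differences of -0.24 and -0.34. Yap1 and Wwtr1, coactivators that respond to tension, were not called, with log2 differences of -0.04 and -0.16. With log2 Xist as a covariate 5 regulators were called higher, Tgfb2, Tgfb3, Snai2, Wnt5a and Srf, and 0 lower. The count of 2 lower was less certain: it was 1 without IncPBF lung 1, 2, 3 or 4, without sham lung 4 or 5, with no filter, with equal totals and without the trend, and 3 without sham lung 3, while 9 rose with each lung left out. IncPBF lung 1 was above all sham lungs in each of the 9 that rose, a count partly set by the calls, which used that lung.

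**Figure D4:**
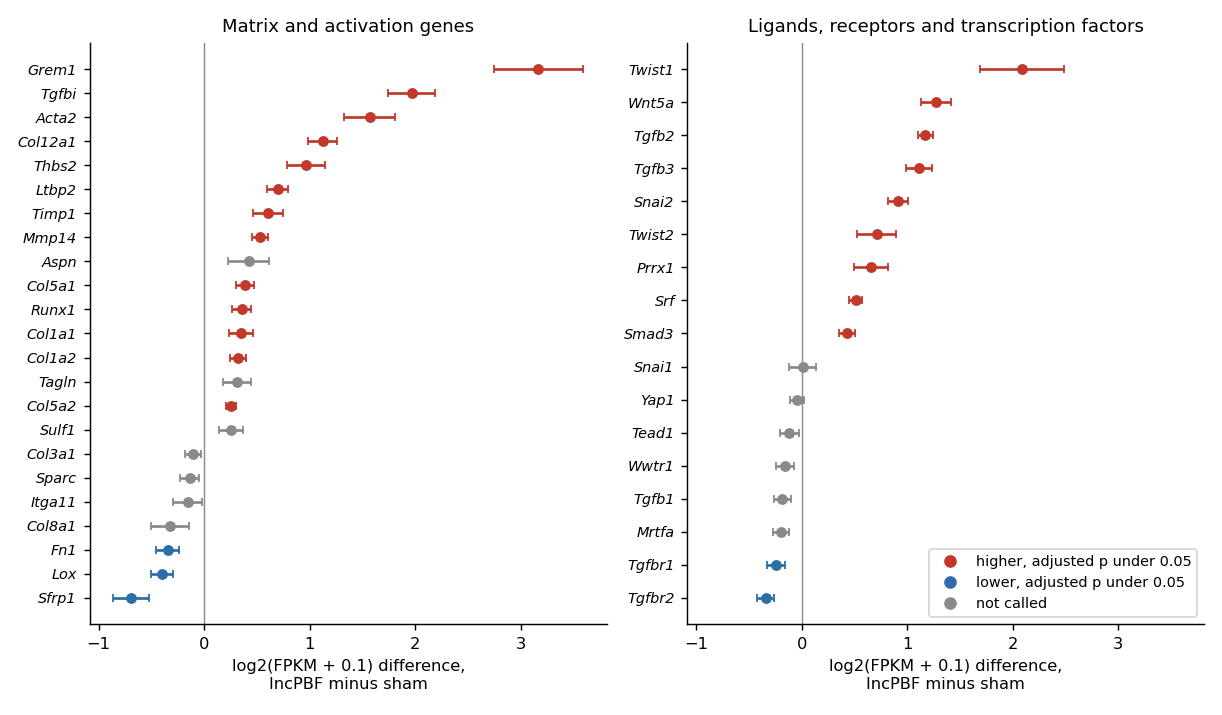
Difference between IncPBF and sham lungs in log2(FPKM + 0.1) with SE (horizontal axes) for 23 matrix and activation genes (left) and 17 ligands, receptors and transcription factors (right), coloured by the limma call at an adjusted p of 0.05. Points to the right of 0 are higher in IncPBF lungs: 13 genes on the left and 9 on the right were called higher, 3 and 2 lower.

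The partners and relatives of the 8 genes did not move as whole families. Their counts are small and stand beside 16.1% of all genes tested called higher and 16.2% called lower, against which they were not tested. Of 10 receptors of matricellular proteins tested, 3 rose and 2 fell. Cd44, a receptor of osteopontin and hyaluronan, had 36.2 ± 1.87 FPKM in IncPBF and 19.3 ± 2.65 FPKM in sham lungs (SD, n = 5), a log2 difference of 0.91 (SE 0.08; limma adjusted p = 3.44e-05). Itga4 rose by 0.52 and Itgav was also called higher, while Itga8 (-0.67) and Itgb5 (-0.34) fell. With the Xist covariate, Cd44 and Itga4 were called and no gene of the list was called lower.

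Of the catenins, which tie cadherins to the cytoskeleton, 0 of 5 tested rose and Jup (-0.39) and Ctnna1 (-0.23) fell, the values being log2 differences. Ctnnb1 was at 158.3 ± 9.52 FPKM in IncPBF and 159.8 ± 15.4 FPKM in sham lungs (SD, n = 5), against the difference of 1.08 in Cdh11. The count of 2 lower was 1 without IncPBF lung 1, 2, 3 or 4, without sham lung 1, 2 or 5, with equal totals and with no filter, and 0 with the Xist covariate. Of 8 other classical cadherins tested, 3 rose, Cdh24 (0.56), Cdh22 (0.49) and Cdh2 (0.34), and Cdh5, the endothelial cadherin, fell by 0.44. The count of 3 was 1 with quantile normalization, 1 without IncPBF lung 3 or 4 or without sham lung 1, 2, 4 or 5, and 0 with the Xist covariate, while the count of 1 lower was 2 without IncPBF lung 5 or sham lung 1 and 0 with the covariate.

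Tnxb, the tenascin of resting connective tissue, fell by 0.81 (SE 0.09; limma adjusted p = 0.000117), from 9.08 ± 1.07 FPKM in sham to 5.14 ± 0.495 FPKM in IncPBF lungs (SD, n = 5). It moved the opposite way to Tnc, and it was also called with the Xist covariate. Tgfbi, the nearest relative of periostin in the list of fasciclin domain proteins, had a log2 difference of 1.97 against 0.25 for Postn, and Stab1 fell by 0.58 on the log2 scale, a call that was lost with the Xist covariate. Ibsp, bone sialoprotein and a relative of osteopontin, was at 0.650, 1.08, 1.33, 1.26 and 0.536 FPKM in IncPBF lungs 1 to 5 and at 0, 0.0513, 0.385, 0.0759 and 0.0555 FPKM in sham lungs 1 to 5. The groups did not overlap, and the log2 difference was 2.48 (SE 0.45, limma adjusted p = 0.00189), unlike Spp1. These levels rest on 23 to 51 fragments per IncPBF lung and 0 to 15 per sham lung. The mean of Ibsp over the 10 lungs was 0.543 FPKM and its sham mean 0.114 FPKM. It therefore passed the minimum of 0.5 FPKM only through the IncPBF lungs. With a minimum mean of 1 FPKM Ibsp was no longer tested, and with the Xist covariate it was not called.

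Of 7 membrane ADAM proteases tested, Adam33 and Adam19 rose, by 0.97 (SE 0.21) and 0.84 (SE 0.06), and Adam15 (-0.45) and Adam9 (-0.29) fell. Adam19 and Adam15 were also called with the Xist covariate. Adam9 is near the threshold, and the count of 2 lower was 1 without IncPBF lung 1, 3 or 4 or without sham lung 1, 2 or 5. Of 4 dipeptidyl peptidase genes tested, Dpp8 (-0.24) and Dpp4 (-0.20) fell, both with overlapping groups, and 0 rose. Both of these calls are close to the threshold: 0 were lower without IncPBF lung 1, 3 or 4, without sham lung 1, 4 or 5, and with no filter, 1 without IncPBF lung 2 or sham lung 2, and with equal totals 0 were lower and 1 was higher.

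Markers of cells that could carry the same transcripts were read in the same lungs, beside the 16.1% higher and 16.2% lower of all genes tested. Of 10 alveolar fibroblast markers tested, 1 rose, Wnt2 (0.71), and 5 fell, Inmt (-2.99) and Limch1 (-0.67) among them, and their summed level was 747 to 930 FPKM in IncPBF and 1224 to 1787 FPKM in sham lungs. Inmt had the widest difference of these genes in FPKM, with 64.8 ± 23.2 FPKM in IncPBF and 502.2 ± 122.3 FPKM in sham lungs (SD, n = 5). The difference of the sums mainly follows this 1 gene, and 4 of the 10 markers were not called. The sums therefore do not describe the list as a whole. With the Xist covariate Wnt2 was called higher and only Inmt lower. Tcf21, a transcription factor of these cells, was at 107 ± 5.03 and 109 ± 10.1 FPKM (SD, n = 5) and was not called. Of 8 adventitial fibroblast markers, Dpt (0.48) and Col14a1 (0.38) rose and Ly6a (-0.64) fell, with sums of 465 to 565 and 440 to 530 FPKM. The largest term of these sums was Dpt, with means of 331 FPKM in IncPBF and 239 FPKM in sham lungs. Without sham lung 1 the count of 1 lower was 2, and with the Xist covariate 0 were called. Of 5 smooth muscle markers 3 rose, Actg2 by 1.65, Des by 0.74 and Myh11 by 0.73, and the sums were 102 to 201 FPKM in IncPBF and 53.0 to 93.0 FPKM in sham lungs. With the Xist covariate 0 smooth muscle markers were called.

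Of 14 macrophage markers, which bear on Spp1, 1 rose, Ctsk (0.54), and 2 fell, Lyz2 (-0.78) and C1qb (-0.35). Their sum was 1210 to 1832 FPKM in IncPBF and 2300 to 2932 FPKM in sham lungs. The largest term of the sum was Lyz2 at 1389 ± 192 and 2366 ± 211 FPKM (SD, n = 5). The sum mainly follows this 1 gene, and 11 of the 14 markers were not called, so the sum does not describe the list as a whole. The count of 2 lower was 5 without sham lung 3, and 1 without IncPBF lung 2, 3 or 4 or sham lung 2, 4 or 5. It was 1 with equal totals or no filter, and 0 with the Xist covariate. Of the mesothelium markers all 4 tested fell, Lrrn4 (-1.76), Upk3b (-1.27), Msln (-0.88) and Upk1b (-0.82). Lrrn4, Upk3b and Msln overlapped between the groups, and with each lung left out the count lower was 3 to 4. The sums were 46.6 to 75.9 FPKM in IncPBF and 82.1 to 158.4 FPKM in sham lungs, and Upk1b was called with the Xist covariate.

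Cartilage, bone and skeletal muscle also use several of the 8 genes. Of 9 cartilage and tendon markers 2 were tested, and Scx rose by 0.43, a call that was lost without IncPBF lung 4 and with the Xist covariate. Chad, the other one tested, was at 2.71 to 7.28 FPKM in IncPBF and 0.581 to 5.88 FPKM in sham lungs and was not called. Matn3, below the minimum, did not overlap, with 0.108 to 0.272 FPKM in IncPBF and 0.0352 to 0.0924 FPKM in sham lungs. It had at most 17 fragments in any lung. Col2a1 was at 0.0951 to 0.163 FPKM in IncPBF and 0.0977 to 0.230 FPKM in sham lungs, Acan was at most 0.157 FPKM in any lung, and Matn1 and Tnmd had at most 3 fragments in each lung. The bone markers Bglap and Bglap2 were also at or under 3 fragments in each lung. Ibsp was the 1 of 5 that was tested, and it was called higher. Dmp1 had means of 0.0868 FPKM in IncPBF and 0.0197 FPKM in sham lungs, and Sp7 had 0.0727 and 0.0218 FPKM. These rest on at most 8 fragments per lung for Dmp1 and 7 for Sp7. Of 3 skeletal muscle markers tested 0 were called, or 1 without IncPBF lung 1, though their median log2 difference was 1.17 and the summed level of the list was 1.452 to 10.02 FPKM in IncPBF and 1.28 to 2.16 FPKM in sham lungs. Acta1 was at 0 to 4.23 FPKM in IncPBF and 0 to 0.598 FPKM in sham lungs, and Myog and Pax7 were at or under 3 fragments in each lung. Apart from these levels, the part of other cell types in the differences of the 8 genes was not tested.

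**Figure D5:**
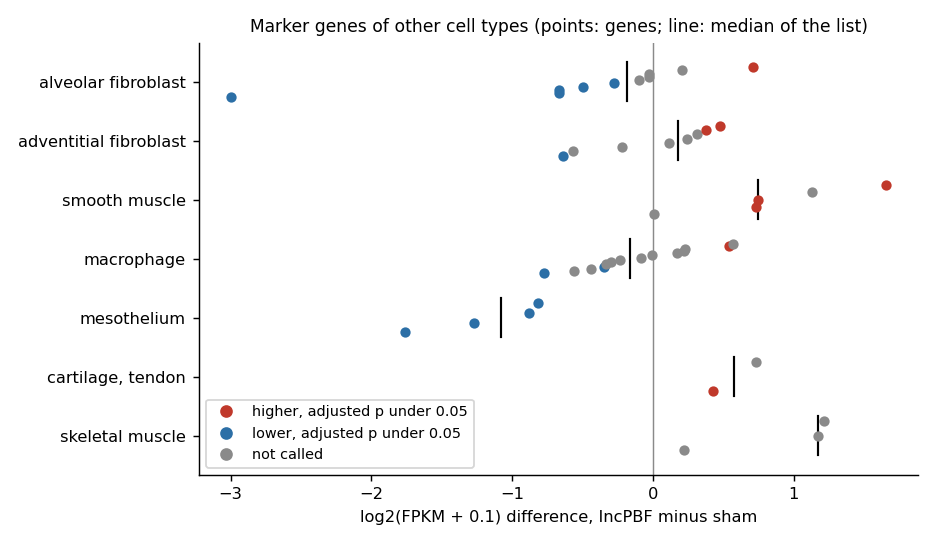
Difference between IncPBF and sham lungs in log2(FPKM + 0.1) (horizontal axis) of marker genes for 7 kinds of cell or tissue (vertical axis), 1 point per gene tested, coloured by the limma call, with a line at the median of each list. Smooth muscle lies to the right with a median of 0.74, mesothelium to the left with -1.08, and macrophage and alveolar fibroblast markers spread around medians of -0.16 and -0.19.

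Over all lists, with each gene counted once, 124 genes were tested, of which 39 rose and 27 fell. Over all genes tested 16.1% were called higher and 16.2% lower, and the lists were not tested against these shares. IncPBF lung 1 lay above all sham lungs in 36 of the 39 and below all of them in 23 of the 27. Since lung 1 was used in the calls, they partly set these counts. With log2 Xist as a covariate 10 were called higher and 4 lower, beside 328 and 413 of all genes tested. Where the labels do not say that lungs of a group came from separate litters or operations, the p-values measure the spread between these lungs only.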

How the data were processed

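Lungs of 5 IncPBF and 5 sham mice were profiled by bulk RNA-sequencing with NEBNext libraries. The authors deposited 1 table of FPKM with the length of each gene. The aligner, counter and test were not described in the methods; the submitters' processing notes name Bowtie 0.12.2 and the builds hg38, GRCm38 and mm10, with no role given. The titles and the table abbreviate IncPBF differently, so the 5 columns not named sham were taken as the IncPBF group. Of 54409 genes shared with GENCODE M21, 98.3% had identical positions, including all 8 members. FPKM multiplied by length gave whole fragments for 100% of values (within 0.02 fragments), which gave the totals per lung. Ranges of fragments over lungs hold the spread between lungs as well as counting error.

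The 15388 genes whose FPKM averaged 0.5 or more entered limma 3.58.1 in R 4.3.3, as log2(FPKM + 0.1), by lmFit and eBayes with trend, Benjamini-Hochberg adjusted over all genes at 0.05. A fold on this scale understates the change of low genes. The fit was tested on simulated data.

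The 8 members, and 18 lists of 162 other genes, were chosen with earlier results of these data known. Named were all members, up to 4 called genes per list by size of difference (up to 3 by level where none was called), the genes nearest in profile, Xist and Ddx3y. Outside this rule, and chosen after their values were seen, are the other list genes named as called. So are Col3a1, Tgfb1, Yap1, Wwtr1, Ctnnb1, Tcf21, Chad, Matn3, Col2a1, Acan, Dmp1 and Sp7. Mrtfa was matched by gene ID, under its older symbol Mkl1. Markers at or under 3 fragments in each lung were called near 0.

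RefSeq promoter windows on GRCm38.p6 matched 4 of the 8 members. The bases after the start were left out, and motifs were searched in 250 bases on both strands. Alternatives were a pseudocount of 1 or 0.01, a minimum mean of 1 FPKM or no minimum, equal totals, median centring, quantile normalization, eBayes without trend, limma-voom on recovered fragments, log2 Xist as covariate, the replicate block, each lung left out, and IncPBF lung 1 alone against sham. No litter, date or batch was given in the labels. Figures were drawn with Python 3.11.15 and pandas 2.3.3.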

Additional observations from a re-analysis of the deposited data

Results flagged for a closer look

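Within each group of 5 lungs the highest or lowest lung was compared with its neighbours by Dixon's ratio, which chance alone exceeds in about 1 of 20 groups. Of 110 groups examined, 7 held a lung that stood apart, and none of them belonged to the 8 activated fibroblast genes. In sham lung 3, Ibsp was at 0.385 FPKM, where the other sham lungs had 0 to 0.0759 FPKM, and Adam33 was at 4.25 FPKM, where the others had 1.85 to 2.31 FPKM. Tgfb2 was at 12.1 FPKM in sham lung 1 and at 14.9 to 15.5 FPKM in the other sham lungs. Ly6a was at 86.7 FPKM in sham lung 4 and at 114 to 123 FPKM in the others. In IncPBF lung 3, Col14a1 was at 11.2 FPKM, below the 14.02 to 14.8 FPKM of the other IncPBF lungs, and Ctsk was at 25.6 FPKM, above their 16.2 to 18.9 FPKM. Mylpf, a skeletal muscle marker, was at 2.58 FPKM in IncPBF lung 5 and at 0.928 to 1.36 FPKM in the others.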

How the results depend on the processing

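The direction of each of the 8 genes was the same under every alternative that gave a value. With log2 Xist as a covariate, the number of genes called was 328 higher and 413 lower in place of 2480 and 2490, members called were 3 in place of 6, and list genes called were 10 higher and 4 lower in place of 39 and 27. With equal totals per lung 3559 genes were called higher and 1782 lower, and 44 and 21 list genes. Under that covariate the log2 difference of Lrrc15 was 2.55 and that of Postn 0.17, and between IncPBF lung 1 alone and the sham lungs, a value with no test, these were 2.64 and 0.16. A pseudocount of 1 gave 2.06 for Lrrc15, since it shrinks differences of low levels, and equal totals per lung gave 0.33 for Postn. Leaving out each lung in turn gave 1950 to 2535 genes called higher and 1919 to 2699 lower, and 35 to 41 list genes higher and 18 to 31 lower. Members called were 6 higher and 0 lower each time, counts that the choice of the genes by this contrast fixed. The log2 differences then ran from 3.13 to 3.62 for Lrrc15, 1.04 to 1.11 for Cdh11, 0.22 to 0.27 for Postn, 1.97 to 2.34 for Tnc, 0.71 to 0.88 for Cthrc1, 0.63 to 0.83 for Fap, 0.60 to 0.76 for Adam12 and -0.30 to -0.05 for Spp1. Fap was below the minimum level and entered a fit only with no filter.

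The replicate numbers did not pair the lungs: the correlations of same-numbered lungs' deviations were between -0.07 and 0.09, and 2 of 5 numbers had their own partner as the best. With the replicate block 2390 genes were called higher and 2482 lower, 6 members higher, and 40 list genes higher and 27 lower. Of the main results under all alternatives, 281 values stayed within their limits and 11 moved, and of the single-list counts 669 stayed and 87 moved. The limit was the SD between lungs for a log2 difference and a set fold change for a count. The limit for counts was wide: the 3559 genes higher and 1782 lower with equal totals per lung are among the values that stayed. The sham levels of Lrrc15 (15 to 90 fragments) and of Fap (8 to 22 fragments) limit the precision of their differences.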
